A study of Mus musculus with 6 samples.

Results

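Rps27l, Cdkn1a, Mdm2, Ccng1, Phlda3, Zmat3 and Trp53inp1 are target genes of the tumour suppressor p53, and Trp53 encodes p53 itself. These 8 genes were examined in transduced mouse B cells, beginning from the higher signal of Rps27l in cells carrying MYD88 L265P. They were selected on that difference between MYD88_L265P and the empty vector (EV), so in that comparison they are described without a p-value. A gene counted as measured when the platform annotation gave a feature its symbol alone. This held for 6 of the 8 genes, with 1 feature each, out of 19818 genes and 21542 such features. Cdkn1a, the gene of p21, shared its feature with a second symbol and is described apart. The platform annotation gave no feature the symbol Trp53, alone or with others, so its signal could not be analysed here.

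p53 is a transcription factor that is held at a low level by the ubiquitin ligase MDM2, itself the product of a p53 target gene, so that the pathway carries its own brake. DNA damage, oncogene activity or disturbed ribosome assembly can release it, and its targets then halt the cell cycle, repair DNA or start apoptosis. p21 binds complexes of cyclins with cyclin-dependent kinases (CDKs), and the resulting DREAM repressor complex lowers many genes of the cell cycle. In germinal centre B cells, which divide rapidly, the repressor BCL6 restrains Trp53 and Cdkn1a.

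Splenic B cells of the mature type were stimulated, transduced with a retrovirus, kept with mitogen for 36 hours and without it for 24 hours, and sorted for the green fluorescence of the vector. All groups carried a retrovirus: EV the empty GFP vector, IKK_K171E an IKK construct with the K171E substitution, and MYD88_L265P the adaptor of Toll-like and interleukin-1 receptors with a substitution known from lymphoma. The constructs were added to the cells' own genes, the IKK subunit was not named, and strain and age were not given. Each of the 3 groups had 2 arrays, called biological replicates in the labels. With 2 arrays a group the precision is limited, and p-values measure only the spread between these arrays. Values are log2 signals, and a difference of 1 is a doubling.

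The labels were checked on the transduced genes. Myd88 read 12.25 and 12.31 in MYD88_L265P and between 9.14 and 9.43 on the other 4 arrays. Ikbkb, the gene of IKK beta, read 11.35 and 10.68 in IKK_K171E and 9.68 to 10.22 elsewhere. This second check is weaker: IKK_K171E minus EV was 0.91 (SE 0.21, limma adjusted p = 0.0848) and was not called. The B cell genes Ms4a1 (12.54 to 12.91), Cd79b (11.82 to 12.55) and Pax5 (11.44 to 11.75) gave these signals over all 6 arrays. Of 8 measured B cell markers, 5 were called lower in MYD88_L265P than in EV, and of 7 plasma cell markers 3 were called higher. These are 62.5% and 42.9%, beside 16.6% of all features. All 8 B cell differences were negative, the largest for Fcer2a (-1.81) and Cr2 (-1.31). In IKK_K171E minus EV, Fcer2a differed by 1.08 and was not called. The part of these markers in the results was not tested. In such bulk samples, fewer cells of a type and less RNA per cell cannot be told apart.

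Sequences near the starts of these genes are shown first, because p53 acts through a short DNA motif. The p53 half-site has 10 bases: purines, C, A or T at both following positions, G, then pyrimidines, and it reads the same on both strands. It was searched from 250 bases before to 50 bases after each RefSeq gene start (build GRCm38.p6), and capitals mark the match. Of all 32851 such windows, 8.36% held a half-site, and 0.0731% held 2 half-sites with a spacer of 0 to 13 bases. Entries were found for 6 of the 8 genes, in 8 windows, and 5 windows held a match.
Cdkn1a, chr17:29090896-29090947, plus strand: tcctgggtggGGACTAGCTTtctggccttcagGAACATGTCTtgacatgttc
Rps27l, chr9:66946193-66946222, plus strand: ctttgggctcGGGCTTGCTTtccttcaggc
Rps27l, chr9:66946296-66946325, plus strand: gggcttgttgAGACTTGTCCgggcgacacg
Mdm2, chr10:117710925-117710954, minus strand: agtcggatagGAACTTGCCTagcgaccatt
Ccng1, chr11:40755452-40755481, minus strand: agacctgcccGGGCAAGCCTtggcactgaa

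The window at the first of 2 listed Cdkn1a starts was the only one of the 8 with 2 half-sites close enough to count as a pair. The window at the second Cdkn1a start held none. Both Rps27l matches lay before the second of its 2 listed starts, in a stretch downstream of the first start, and the window at that first start held none. Mdm2 and Ccng1 each had 1 match, and Phlda3 had none in its window. The single window of Trp53 also held 1 half-site. Only exact matches to the pattern were counted, and near matches stand in lower case. A match describes letters, and binding of p53 was not measured here.

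Rps27l encodes a ribosomal protein closely related to Rps27 and is a p53 target. It was the member with the widest range, 1.67 on the log2 scale. Its signal was 8.91 and 8.56 in EV, 9.87 and 9.25 in IKK_K171E, and 10.11 and 10.23 in MYD88_L265P. The 3 groups did not overlap: both EV arrays were lowest, both MYD88_L265P arrays highest, and IKK_K171E lay between, with the widest spread (SD 0.44). The mean was higher by 1.44 (SE 0.21) in MYD88_L265P than in EV, a 2.71-fold difference that ranked 103 from the top of 21542 features. It was higher by 0.83 (SE 0.21) in IKK_K171E than in EV, and by 0.61 (SE 0.21) in MYD88_L265P than in IKK_K171E. Without IKK_K171E replicate 1 these were 0.52 and 0.92, and without IKK_K171E replicate 2 they were 1.14 and 0.30, so the place of IKK_K171E between the other groups varied with the array used. Both further differences share arrays with the one that led to the choice of Rps27l, and they too are given without a p-value.

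**Figure D1:**
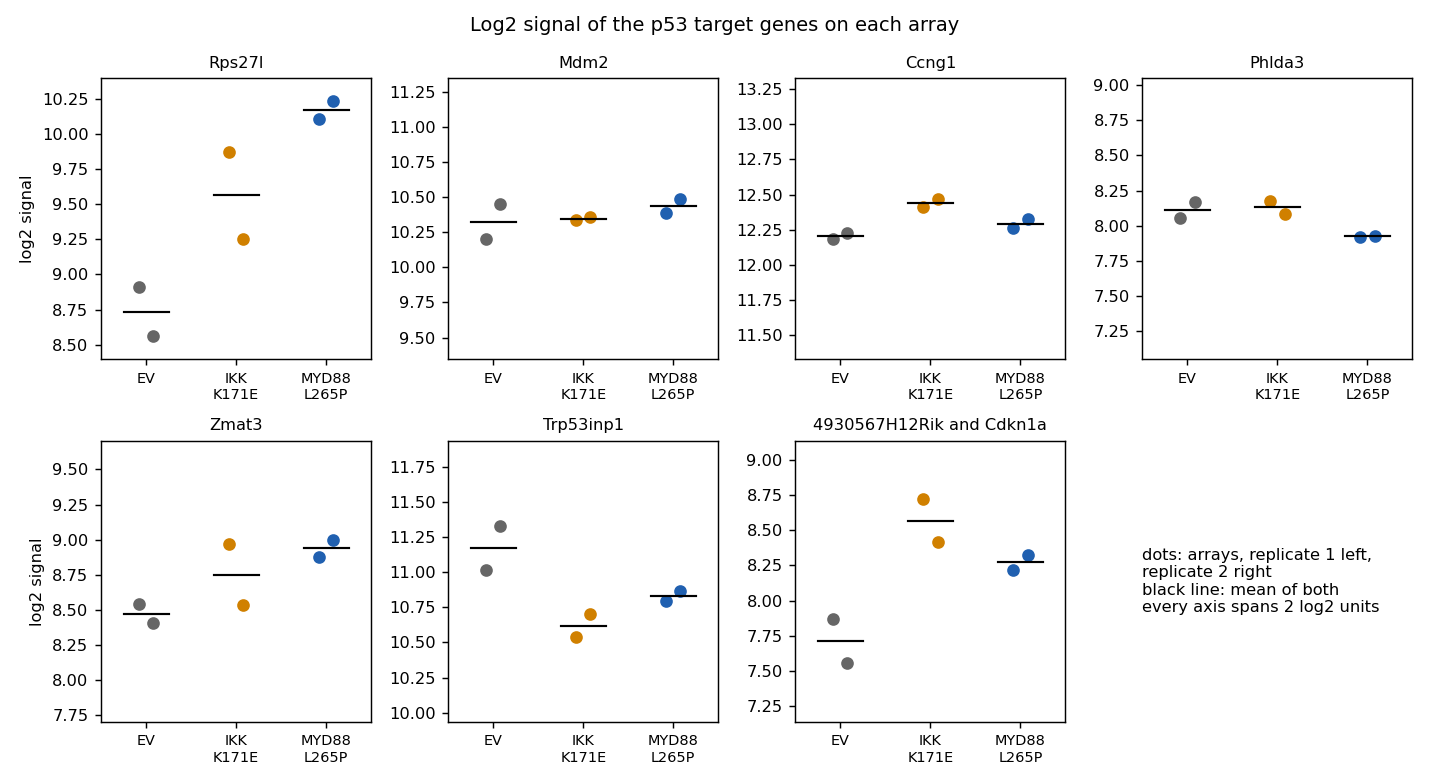
Log2 signal of the 6 measured genes, and of the feature annotated to 4930567H12Rik and Cdkn1a, on each of the 6 arrays. Dots are arrays, black lines are means of 2 arrays, and every axis spans 2 log2 units. Rps27l covers 1.67 units in steps from EV through IKK_K171E to MYD88_L265P, while Mdm2, Ccng1 and Phlda3 each stay within 0.29.

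The relative of Rps27l moved the other way. Rps27 had no feature of its own symbol, but 2 features were annotated to Rps27 together with its retrotransposed copy Rps27rt, and they carry the same accessions. The first read 12.35 and 12.38 in EV, 12.01 and 12.09 in IKK_K171E, and 11.93 and 11.86 in MYD88_L265P. The groups did not overlap, in the order opposite to that of Rps27l. Tested over all 24743 features, this feature was lower in MYD88_L265P than in EV by a log2 difference of -0.47 (SE 0.09, limma adjusted p = 0.0214), and the second feature gave -0.46 (SE 0.08, adjusted p = 0.0219). The call of both ended without EV replicate 2 and without either MYD88_L265P array. It also ended with the number in the sample titles as a block (-0.48 and -0.44), which left only EV replicate 2 in this comparison. In IKK_K171E minus EV the differences were -0.31 and -0.34, which did not pass (adjusted p = 0.149 and 0.127).

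Mdm2, whose product is the main inhibitor of p53, differed little. It read 10.20 and 10.45 in EV, 10.34 and 10.36 in IKK_K171E, and 10.39 and 10.49 in MYD88_L265P. The EV arrays enclosed both IKK_K171E arrays and 1 of the MYD88_L265P arrays. The MYD88_L265P minus EV difference of 0.11 (SE 0.11) took the opposite sign under quantile normalization (-0.03). The IKK_K171E minus EV difference was 0.02 (SE 0.11, limma adjusted p = 0.948), with a 95% interval from -0.23 to 0.27. It also changed sign under quantile normalization (-0.03). Against IKK_K171E, MYD88_L265P differed by 0.09 (adjusted p = 0.640, interval -0.16 to 0.34).

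Of the targets that act on the cell cycle, Ccng1 encodes cyclin G1, which recruits a phosphatase to MDM2. It read 12.18 and 12.23 in EV, 12.41 and 12.47 in IKK_K171E, and 12.26 and 12.32 in MYD88_L265P. Replicates were close, and the groups did not overlap, with IKK_K171E highest. The difference IKK_K171E minus EV was 0.24 (SE 0.09, limma adjusted p = 0.219, interval 0.04 to 0.44 before adjustment). MYD88_L265P minus IKK_K171E was -0.15 (adjusted p = 0.362), and MYD88_L265P minus EV was 0.09 (SE 0.09).

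Cdkn1a encodes the CDK inhibitor p21, the classical p53 target of cell cycle arrest. Its feature is annotated to 4930567H12Rik as well, so the signal cannot be assigned to either gene and enters none of the counts. That feature read 7.87 and 7.55 in EV, 8.72 and 8.42 in IKK_K171E, and 8.22 and 8.32 in MYD88_L265P. All 4 arrays with a construct lay above both EV arrays, and IKK_K171E lay above MYD88_L265P. Tested over all 24743 features, IKK_K171E minus EV was 0.86 (SE 0.15, limma adjusted p = 0.0646). It missed the threshold of 0.05 and passed it under some alternatives, among them quantile normalization (limma adjusted p = 0.0463). MYD88_L265P minus EV was 0.56 (SE 0.15), given without a p-value because the genes were selected on that comparison. MYD88_L265P minus IKK_K171E was -0.30 (adjusted p = 0.321). The order of the groups thus differed from that of Rps27l, although the order was not itself tested.

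Trp53inp1 encodes a stress protein that links p53 to cell death and autophagy. It read 11.02 and 11.33 in EV, 10.54 and 10.70 in IKK_K171E, and 10.79 and 10.87 in MYD88_L265P. Both EV arrays were the highest and both IKK_K171E arrays the lowest, without overlap. IKK_K171E minus EV was -0.55 (SE 0.12, limma adjusted p = 0.0851, interval -0.85 to -0.26 before adjustment) and ranked 21341 from the top of 21542 features, short of the threshold. Without EV replicate 1 the value was -0.71 and passed (adjusted p = 0.0402). MYD88_L265P minus EV was -0.34 (SE 0.12), which became -0.19 without EV replicate 2. MYD88_L265P minus IKK_K171E was 0.21 (adjusted p = 0.374, interval -0.08 to 0.50).

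Zmat3, also known as Wig1, encodes a zinc finger protein that binds RNA. It read 8.54 and 8.40 in EV, 8.97 and 8.53 in IKK_K171E, and 8.88 and 9.001 in MYD88_L265P. MYD88_L265P lay above EV without overlap, whereas the IKK_K171E replicates reached from the upper EV array into the MYD88_L265P range. MYD88_L265P minus EV was 0.47 (SE 0.15). IKK_K171E minus EV was 0.28 (SE 0.15, limma adjusted p = 0.401) and came to 0.06 without IKK_K171E replicate 1 and 0.50 without replicate 2, and MYD88_L265P minus IKK_K171E was 0.19 (adjusted p = 0.489), which turned to -0.03 without IKK_K171E replicate 2.

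Phlda3 encodes an inhibitor of AKT that competes for membrane lipids. It read 8.05 and 8.17 in EV, 8.18 and 8.09 in IKK_K171E, and 7.92 and 7.93 in MYD88_L265P. The EV and IKK_K171E arrays overlapped, and both MYD88_L265P arrays were lower. MYD88_L265P minus EV was -0.19 (SE 0.09) and MYD88_L265P minus IKK_K171E was -0.21 (SE 0.09, limma adjusted p = 0.263, interval -0.42 to 0.00472 before adjustment). IKK_K171E minus EV was 0.02 (adjusted p = 0.940, interval -0.19 to 0.23).

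**Figure D2:**
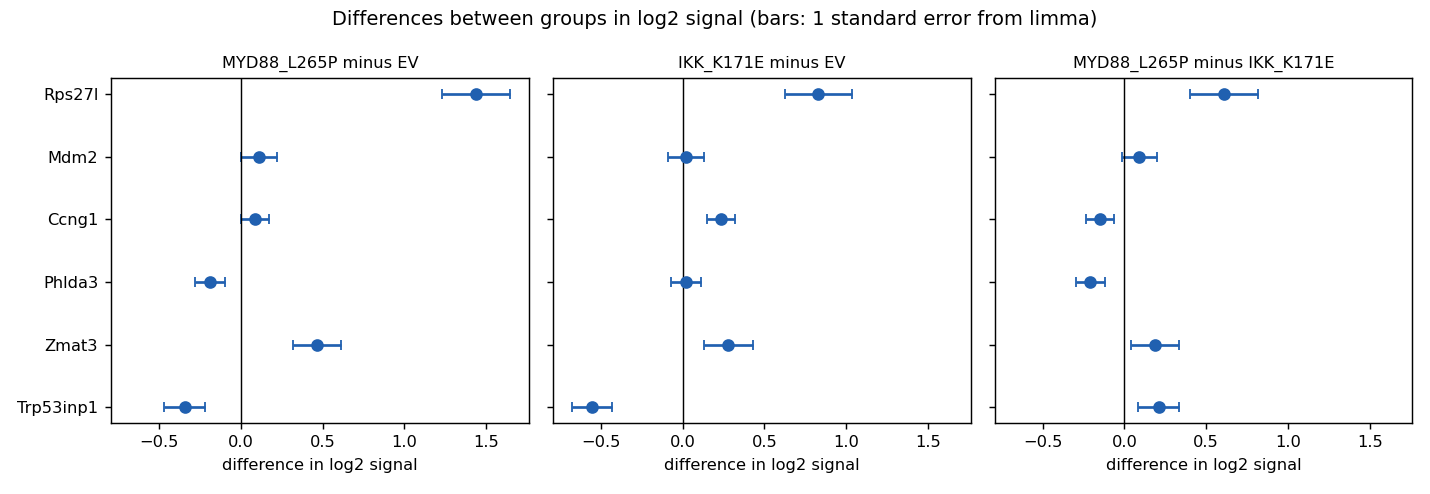
Differences in log2 signal between groups for the 6 measured genes, one panel per comparison. Points are limma estimates and bars are 1 standard error. Rps27l has the largest positive value in all 3 panels (1.44, 0.83 and 0.61), and Trp53inp1 the lowest in the 2 comparisons with EV (-0.34 and -0.55).

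In MYD88_L265P minus EV, 1 of the 6 measured genes, Rps27l, was called by limma at an adjusted p below 0.05, beside 16.6% of all tested features. The genes were selected on this comparison for the rise of Rps27l, so neither its call nor the count is read as a result. Rps27l was not called when either MYD88_L265P array was left out, at differences of 1.50 and 1.37. In IKK_K171E minus EV, limma called 0 of the 6, beside 1.37% of all features. Of the 5 genes other than Rps27l, 2 had an unadjusted p below 0.05: Ccng1, with a positive difference, and Trp53inp1, with a negative one. The share of all features at that unadjusted threshold is not given here. No excess is therefore read from this or the later unadjusted counts. In MYD88_L265P minus IKK_K171E, 0 of the 6 were called, beside 1.75% of all features, and 0 of the 5 genes other than Rps27l had an unadjusted p below 0.05. The median difference of the 6 genes was 0.10, 0.13 and 0.14 in these 3 comparisons, where the median of all features was -0.11, -0.04 and -0.05. Rps27l, chosen for its rise, is among the 6, so these medians are not read as a result. Of the 5 genes other than Rps27l, the middle value was 0.09 (Ccng1), 0.02 (Mdm2) and 0.09 (Mdm2). Both comparisons with EV share its 2 arrays, and MYD88_L265P minus IKK_K171E shares the MYD88_L265P arrays with the comparison that led to the choice of genes.

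The members did not all follow each other across the 6 arrays. Zmat3 came closest to Rps27l, with a Pearson r of 0.96 over 6 arrays, and Mdm2 and Ccng1 had r of 0.33 and 0.35. Trp53inp1 (-0.69) and Phlda3 (-0.63) ran against Rps27l. These values describe 6 arrays in 3 groups and carry no test. Trp53inp1 and the feature of 4930567H12Rik and Cdkn1a mirrored each other, with r of -0.98.

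The genes whose profile was most like that of Rps27l were Trim37 (r = 0.999), Cdk6 (0.999), Sfxn1 (0.999), Ddx21 (0.997) and Eif4e (0.997). Trim37 encodes a ubiquitin ligase, Cdk6 a kinase of G1 phase, Sfxn1 a mitochondrial serine transporter, Ddx21 a nucleolar RNA helicase and Eif4e the cap-binding factor of translation. Cdk6 read 9.71 and 9.38 in EV, 10.51 and 9.96 in IKK_K171E, and 10.78 and 10.90 in MYD88_L265P, so it shared with Rps27l the lower EV replicate 2 and the higher IKK_K171E replicate 1. Such a profile was common: 283 of the 1393 features with a range of at least 1, counting Rps27l itself, had an r above 0.95 with Rps27l. For the feature of 4930567H12Rik and Cdkn1a only 9 of the 1393 did, led by the phospholipase gene Pla2g4a (0.987), followed by the interferon-induced gene Ifitm2 (0.959), the lectin gene Clec4n (0.959), the cystine transporter gene Slc7a11 (0.957) and Bcl2a1c (0.956).

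**Figure D3:**
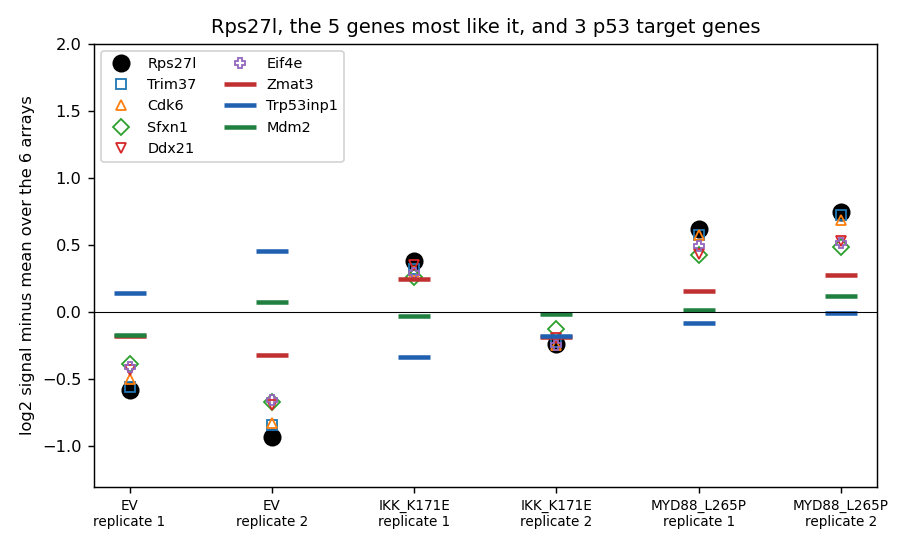
Log2 signal minus the mean over the 6 arrays for Rps27l (black), the 5 genes with the highest correlation to it (open symbols) and Zmat3, Trp53inp1 and Mdm2 (bars). The 5 genes lie close to Rps27l on every array, whereas Mdm2 spans only 0.29 and Trp53inp1 is highest where Rps27l is lowest, in EV replicate 2.

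The wider set of p53 targets held 47 further genes, of which 44 were measured. In MYD88_L265P minus EV, 1 was called higher and 6 lower (15.9% called, beside 16.6% of all features), with a median of -0.15 beside -0.11 for all features. Ephx1, which encodes a microsomal epoxide hydrolase, fell by 1.90 (SE 0.36, limma adjusted p = 0.0182). It read 10.06 and 11.40 in EV, 9.77 and 9.75 in IKK_K171E, and 8.89 and 8.77 in MYD88_L265P, so its EV arrays were far apart. Sesn1, the gene of the mTORC1 inhibitor sestrin 1, fell by 0.83 (SE 0.18, adjusted p = 0.0252), and Pml, of the nuclear bodies that hold p53 regulators, fell by 0.62 (SE 0.13, adjusted p = 0.0211). Trim32, a ubiquitin ligase gene, was the one that rose (0.59, SE 0.11, adjusted p = 0.0176). The number called was 1 without MYD88_L265P replicate 1 and 0 without replicate 2, where limma called 415 and 191 features of the whole table in place of 3586. The value of Sesn1 was -0.55, and not called, without EV replicate 2. The value of Ephx1 came to -1.24 when EV replicate 2 was left out and to -2.57 when EV replicate 1 was.

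Fas, the death receptor gene, was called in all 3 comparisons. It read 10.36 and 10.39 in EV, 10.97 and 10.95 in IKK_K171E, and 9.69 and 9.54 in MYD88_L265P. The EV arrays lay between the other groups: IKK_K171E was higher by 0.58 (SE 0.09, limma adjusted p = 0.0399) and MYD88_L265P lower by 0.76 (SE 0.09, adjusted p = 0.00579). The direct difference between the constructs was -1.34 (SE 0.09, adjusted p = 0.00340). Dram1, a gene of p53-linked autophagy, read 8.37 and 8.44 in EV, 9.38 and 9.28 in IKK_K171E, and 8.43 and 8.42 in MYD88_L265P. It rose in IKK_K171E over EV by 0.92 (SE 0.09, adjusted p = 0.0119), and MYD88_L265P was lower than IKK_K171E (-0.90, SE 0.09, adjusted p = 0.00878). Fas and Dram1 were the 2 of 44 targets called in each of these comparisons (4.55% beside 1.37% and 1.75% of all features), with list medians of -0.10 in both. The Fas call in IKK_K171E minus EV was lost with any 1 array left out (0.57 to 0.60), and in MYD88_L265P minus EV without MYD88_L265P replicate 2 (-0.68). The Dram1 call in IKK_K171E minus EV was lost without IKK_K171E replicate 1 (0.87), where limma called 0 features of the whole table. In MYD88_L265P minus IKK_K171E the Dram1 call was lost without any 1 of those 4 arrays (-0.96 to -0.85).

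Bbc3 (PUMA) and Pmaip1 (NOXA), apoptosis genes named for their role and outside the naming rule, did not pass. They differed from EV by -0.21 and -0.10 in MYD88_L265P (limma adjusted p = 0.178 and 0.411) and by -0.01 and -0.15 in IKK_K171E (adjusted p = 0.972 and 0.462). Of 6 measured monocyte and macrophage markers, 5 had a positive difference in IKK_K171E minus EV. There 1 was called higher (Csf1r, 1.22) and 1 lower (Adgre1, -1.17), which is 33.3% beside 1.37% of all features. The log2 of their summed signal was 12.46 to 12.79 in EV, 13.27 to 13.39 in IKK_K171E and 12.24 to 12.51 in MYD88_L265P. Lyz2 and Adgre1, the brightest of the 6, weigh most in that sum. In MYD88_L265P minus EV 4 of the 6 differences were positive. There 1 was called, Adgre1 (-1.78), which is 16.7% beside 16.6% of all features. Cd14 read 7.20 to 7.36 over all 6 arrays, and Lyz2 read 11.09 and 11.95 in EV, 12.96 and 12.89 in IKK_K171E, and 11.94 and 11.70 in MYD88_L265P. T cell markers had 5 of 5 positive differences in IKK_K171E minus EV, with 0 called by limma and 1 at an unadjusted p below 0.05. Of the same 5, 3 were called lower in MYD88_L265P than in EV, beside 16.6% of all features called. The log2 of their summed signal was 10.34 to 10.40 in EV, 10.48 to 10.66 in IKK_K171E and 9.88 to 10.03 in MYD88_L265P. Of 5 dendritic cell markers, Flt3, singled out after its values were seen, was called in both comparisons with EV. Its differences were 0.75 for IKK_K171E and -0.88 for MYD88_L265P. In MYD88_L265P minus EV, Zbtb46 was also called lower (-0.56), but Ccr9 was called higher (1.49). In IKK_K171E minus EV, Flt3 was the only 1 of the 5 called. The list medians were 0.03 for IKK_K171E and -0.20 for MYD88_L265P. The log2 sum of these 5 was 11.03 to 11.04 in EV, 11.46 to 11.52 in IKK_K171E and 10.74 to 10.81 in MYD88_L265P. The part of these markers in the values of Fas, Dram1 and the feature of 4930567H12Rik and Cdkn1a was not tested.

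Of 19 measured regulators of p53, 2 were called higher in MYD88_L265P than in EV and 0 lower (10.5%, beside 16.6% of all features). Chek1 and Chek2, the checkpoint kinase genes, rose by 1.53 (SE 0.28, limma adjusted p = 0.0169) and 0.67 (SE 0.15, adjusted p = 0.0289). Chek1 read 10.15 and 9.17 in EV, 11.10 and 10.79 in IKK_K171E, and 11.18 and 11.19 in MYD88_L265P, so all 4 arrays with a construct lay above EV. In the other comparisons limma called 0 regulators, with 2 (IKK_K171E minus EV) and 4 (MYD88_L265P minus IKK_K171E) at an unadjusted p below 0.05. The list medians were -0.05, -0.06 and -0.02.

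Among the 7 CDK inhibitor genes other than Cdkn1a, Cdkn2d (p19INK4d) was the only one called. That is 14.3% of the list, beside 16.6% of all features in MYD88_L265P minus EV and 1.37% in IKK_K171E minus EV. It read 9.11 and 9.01 in EV, 8.47 and 8.45 in IKK_K171E, and 8.65 and 8.60 in MYD88_L265P. It fell by 0.60 in IKK_K171E (SE 0.09, limma adjusted p = 0.0357) and by 0.43 in MYD88_L265P (SE 0.09, adjusted p = 0.0211). The IKK_K171E call was lost with any 1 of the 6 arrays left out (-0.65 to -0.54), and the MYD88_L265P call with any 1 of its own or the EV arrays left out (-0.49 to -0.38). The medians of the 7 were -0.15 and -0.25.

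The cyclins and CDKs that p21 binds formed a further list. In MYD88_L265P minus EV 4 of 12 measured genes were called higher and 0 lower (33.3%, beside 16.6% of all features), with a median of 0.66 beside -0.11 for all features. They were Ccne2 (1.78, SE 0.17), Cdk6 (1.30, SE 0.19), Cdk1 (1.18, SE 0.32) and Pcna (0.76, SE 0.17), the replication clamp, with limma adjusted p from 0.00425 to 0.0484. In IKK_K171E minus EV 1 of 12 was called, Ccne2 (1.42, SE 0.17, adjusted p = 0.0230), and the median was 0.34. Of 19 genes that p53 lowers through p21 and DREAM, 5 were called higher in MYD88_L265P than in EV and 0 lower. That is 26.3%, beside 16.6% of all features, with a list median of 0.84. In IKK_K171E minus EV limma called 0 (4 at an unadjusted p below 0.05), with a median of 0.35. All 19 differences were positive in both comparisons, but the EV arrays lay far apart, with a log2 summed signal of 13.70 to 14.72 in EV, 14.55 to 14.82 in IKK_K171E and 15.03 to 15.12 in MYD88_L265P. Without EV replicate 2, a check added after the values were seen, 18 of 19 were positive in MYD88_L265P minus EV (median 0.43) and 5 of 19 in IKK_K171E minus EV (median -0.10). The cyclin and CDK list then had medians of 0.32 and 0.02. Aurka, a mitotic kinase gene, was called at 0.89 and Cks2, a CDK subunit gene, at 0.86 in MYD88_L265P minus EV. Both calls were lost without EV replicate 2 (0.51 and 0.50), without either IKK_K171E array and without either MYD88_L265P array. Among the measured genes, Cdk1 and Ccnb2 stand in both the cyclin and CDK list and the DREAM list. Chek1 stands in the DREAM list and among the regulators, and Cdkn2a among the regulators and the CDK inhibitors. The Cdk1 and Pcna calls were lost without EV replicate 2 (0.63 and 0.50), the EV array with the lower signal, and those of Cdk1, Cdk6, Pcna, Chek1 and Chek2 without either MYD88_L265P array. The Ccne2 call in IKK_K171E minus EV was lost without IKK_K171E replicate 1 (1.35).

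**Figure D4:**
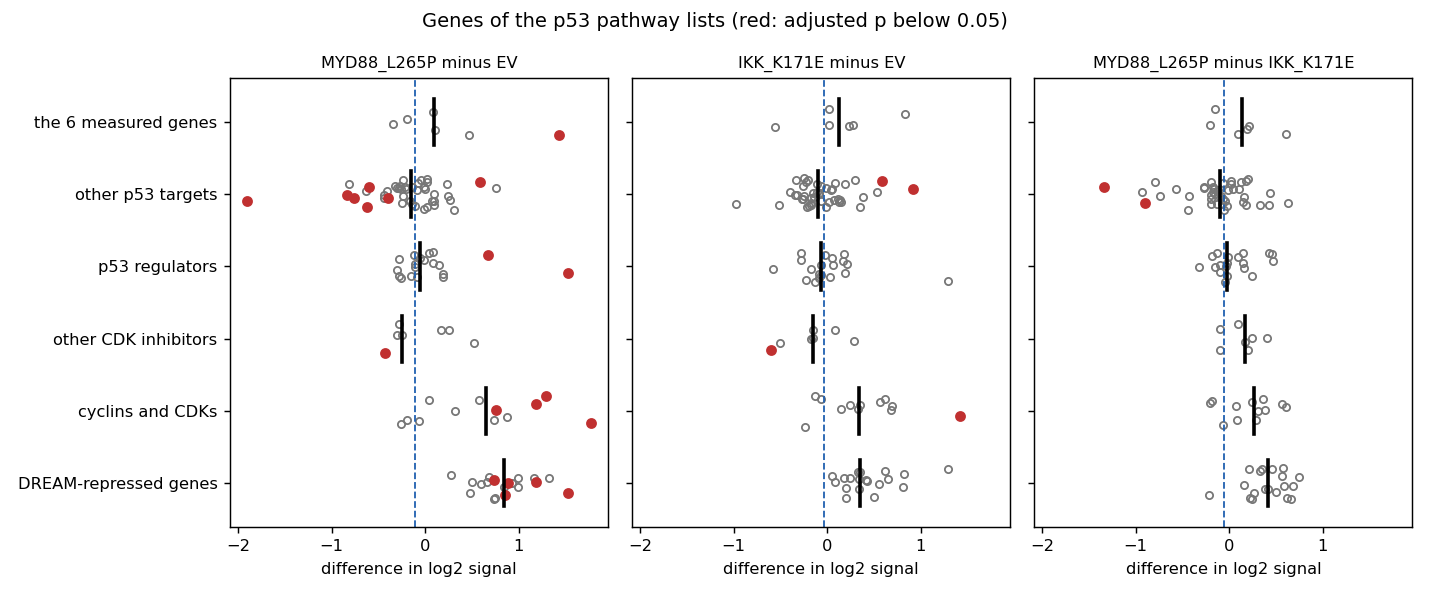
Differences in log2 signal for each measured gene of 6 lists, one panel per comparison. Red dots are genes called by limma at an adjusted p below 0.05, open dots are the others, black lines are list medians and the dashed blue line is the median of all 21542 features. The other p53 targets centre near the dashed line, and the cyclins and DREAM-repressed genes lie to its right in MYD88_L265P minus EV (medians 0.66 and 0.84).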

How the data were processed

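RNA of 6 samples was hybridised to 1 Affymetrix mouse array each. The deposited table holds log2 signals (2.55 to 14.5) for 24743 features, and oligo and limma were used per the submitters' processing notes; background correction, normalization, genome build and detection p-values were not given in the sources used here. Symbols came from the platform annotation: 21542 features had 1 symbol, 1522 several and 1679 none. Of the Entrez IDs of these features, 21472 were found in RefSeq, and 0 symbols changed.

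Group means were fitted over all 6 arrays with limma 3.58.1 in R 4.3.3 (3 residual and 4.17 prior degrees of freedom, two-sided), with Benjamini-Hochberg adjustment over the 21542 features and a threshold of 0.05. The 2-symbol features were tested over all 24743. The fit was tested on simulated data. For a gene with several features the one with the highest mean was used. The members and lists were chosen with earlier results of these data known. Named were the members, Rps27, Myd88, Ikbkb, the called genes of each list (at most 4 per direction, largest first) and the 5 genes most correlated with Rps27l or the Cdkn1a feature among those with a range of at least 1. Alternatives were blocks for replicate numbers, quantile and median normalization, trend and robust variance, array weights, a filter on low signal, all features, only the arrays compared, and leaving out each array.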

Additional observations from a re-analysis of the deposited data

Results flagged for a closer look

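The feature annotated to both 4930567H12Rik and Cdkn1a lies outside the 6 measured genes and was higher on every array with a construct than on both EV arrays. Its log2 difference was 0.56 in MYD88_L265P minus EV and 0.86 in IKK_K171E minus EV. Which of its annotated genes gives the signal was not tested.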

How the results depend on the processing

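With 2 arrays a group, single arrays decided many calls. Leaving out 1 array gave 191 to 3554 called features in MYD88_L265P minus EV, 0 to 506 in IKK_K171E minus EV and 14 to 592 in MYD88_L265P minus IKK_K171E. The same settings gave 0 to 2 and 0 to 1 members in the comparisons with EV, and 0 to 9, 0 to 2 and 1 to 4 other p53 targets in the 3 comparisons. Rps27l ranged from 1.26 to 1.61 in MYD88_L265P minus EV and from 0.52 to 1.14 in IKK_K171E minus EV. In MYD88_L265P minus IKK_K171E it ranged from 0.30 to 0.92. In the comparisons where a member reversed with 1 array left out, the highest values were 0.234 (Mdm2, MYD88_L265P minus EV), 0.144 (Mdm2, IKK_K171E minus EV), 0.077 (Phlda3, IKK_K171E minus EV) and 0.404 (Zmat3, MYD88_L265P minus IKK_K171E).

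The labels do not say that replicate numbers pair the arrays. Deviations of same-numbered arrays correlated at 0.211 (EV with IKK_K171E), 0.105 (EV with MYD88_L265P) and 0.144 (IKK_K171E with MYD88_L265P). With the replicate block, 12 other p53 targets were called in MYD88_L265P minus EV (7 without it), and 626 features and 1 member, Trp53inp1, in IKK_K171E minus EV (295 and 0 without it). With the number in the sample titles as the block, IKK_K171E minus EV gave 609 features and 1 member, and MYD88_L265P minus IKK_K171E gave 1251 features and 9 other targets (377 and 2 without it).

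In MYD88_L265P minus EV, array weights and only the arrays compared each called 2 members. In IKK_K171E minus EV, 487 features were called with trend and robust variance, 123 with array weights, 131 over all features and 51 with only the arrays compared, and the last 3 settings each called 1 other p53 target. In MYD88_L265P minus IKK_K171E, only the arrays compared gave 592 features and 4 other targets. With each array shifted to a common median, 77.4% of calls in MYD88_L265P minus EV were higher (56.0% otherwise), and 66.2% (49.9%) in MYD88_L265P minus IKK_K171E. The median of all features in MYD88_L265P minus EV moved from -0.11 to -0.03.

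Of 270 member values, 10 reversed, 9 newly passed, 2 no longer passed and 249 kept direction and call. Mdm2 reversed under quantile normalization in MYD88_L265P minus EV (-0.030), IKK_K171E minus EV (-0.027) and MYD88_L265P minus IKK_K171E (-0.0025), without EV replicate 1 (-0.011 and -0.10 against EV), and with the title number as a block in IKK_K171E minus EV (-0.072). Phlda3 in IKK_K171E minus EV reversed with that block (-0.058), without EV replicate 1 (-0.037) and without IKK_K171E replicate 1 (-0.026). Against EV, that block and leaving out EV replicate 1 are not separate checks, since both rest on EV replicate 2 alone. Zmat3 in MYD88_L265P minus IKK_K171E reversed without IKK_K171E replicate 2 (-0.029). The cause was not tested. For genes of the other p53 lists only the 23 differences called in the main fit were followed, so none could newly pass. Of their 345 values, 90 no longer passed and 255 kept direction and call. Signal over background could not be set, since detection p-values were not used here.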
